A study of Saccharomyces cerevisiae with 44 samples.

Results

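Ty elements are the retrotransposons of budding yeast, and the values here are those of 6 Ty gene rows of a yeast RNA count table. The rows were taken by name: YLR227W-B, YMR045C, YBL005W-B and YNL054W-B, which encode the Gag-Pol fusion protein of 4 Ty1 copies, YGR109W-B, which encodes Gag-Pol of a Ty3 copy, and YLR256W-A, which encodes Gag of a further Ty1 copy. They are 6 of 90 rows annotated as Ty genes and of 6461 gene rows in all. Each was followed across all groups of the study.

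The study sequenced 3′-end tags of RNA bound to Yra1, an adaptor that helps nuclear mRNA-protein particles (mRNPs) reach the export receptor. Complexes were purified in 2 steps from lysate cross-linked with 0.2% formaldehyde, first on IgG beads through a protein A (PrA) tag and then with an antibody to Yra1, and total RNA came from 7.5% of the same lysate. Cells of the BY4741/2 background were grown in rich medium at 30 °C, and every strain, controls included, carried SNAPf-YRA1. The 5 strains were Cbp80-PrA in tho2Δ, no tag in tho2Δ, Hpr1-PrA in wild type (WT), Cbp80-PrA in WT and no tag in WT, with 3 biological replicates each of the pull-down and of total RNA (10 groups, 30 libraries). Cbp80 belongs to the nuclear cap-binding complex as its larger subunit, and Hpr1 and Tho2 are subunits of THO, which acts on nascent mRNA. The labels give each genotype as 1 strain, so an effect of a deletion or tag and a difference between strain isolates cannot be told apart.

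Pull-down libraries held between 23769 and 459999 gene counts and total RNA libraries between 423380 and 650795, and the 3 no-tag tho2Δ pull-downs were the shallowest group. THO2, the deleted gene, had 0 counts in all 6 tho2Δ pull-downs and a single count over the 6 tho2Δ total RNA libraries, against 64 to 88 counts in each WT total RNA library. Genes specific to mating type a summed to between 559.5 and 1005 CPM (each gene's share of its own library's gene counts, scaled to 1000000) in total RNA and those specific to the other mating type to between 11.7 and 47.8 CPM. As CPM is a share, less of 1 RNA and more of the rest cannot be told apart in it.

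A Ty1 or Ty3 copy is flanked by long terminal repeats (LTRs), is transcribed by RNA polymerase II from the first LTR to the second, and its capped and polyadenylated RNA leaves the nucleus to serve as both message and genome. Its first frame (TYA in Ty1) encodes Gag, the structural protein of virus-like particles, and ribosomes that shift frame at its end also make Gag-Pol, with protease, integrase and reverse transcriptase. In the particle, the initiator methionine tRNA pairs with a primer binding site next to the first LTR and starts reverse transcription, and the cDNA is inserted close to genes of RNA polymerase III, most often tRNA genes.

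Most copies are so alike that a short read cannot be given to one of them, and the aligned reads that fit several places were set aside before counting. Reads with several places made up between 3.92% and 5.98% of reads in pull-downs and between 4.16% and 4.89% in total RNA. The R64 annotation holds 31 Ty1, 13 Ty2, 2 Ty3, 3 Ty4 and 1 Ty5 elements. Over its whole length, YLR256W-A was 99.77% identical to YLR157C-A, and YMR045C and YBL005W-B were 99.41% identical to each other. YLR227W-B was 98.9% identical to YPR137C-B, and YNL054W-B, the most distinct of the Ty1 rows, 97.31% identical to YDR098C-B. YGR109W-B was 99.06% identical to YIL082W-A, the other Ty3 Gag-Pol row, over the 3303 nt that aligned. Each of the 4 Ty1 Gag-Pol rows had 31 other places at 90% identity or more over at least 90% of its length, and YLR256W-A had 28.

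The share of each row that can be counted was therefore measured as the windows of 60 nt that occur once in the R64 genome on either strand. A read lying wholly inside a Gag row that is nested in a Gag-Pol row belongs to both and was counted for neither, so only windows that reach beyond the nested row were used. Of the 90 rows, 41 were such nested Gag rows and held 0 counts. Among the 49 that could be counted, 35 had at least 1 unique window, and 32 of these 35 held counts, 7645 in total RNA and 2269 in pull-downs. The other 14 rows had no unique window and held 4 counts in total RNA and 7 in pull-downs. The 6 genes described here held 5687 of the 7649 Ty counts in total RNA and 2096 of the 2276 in pull-downs.

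Unique windows made up 38.7% of the countable windows of YGR109W-B, in 17 stretches. The Ty1 rows were read through far less sequence, with unique windows making up 12.5% of YNL054W-B, 6.79% of YBL005W-B, 5.62% of YMR045C, 4.7% of YLR256W-A and 3.77% of YLR227W-B. YLR256W-A had 1 stretch of 124 nt, which begins 33 nt before its first base and so spans the end of the LTR, the start codon and the primer binding site. YLR227W-B had 2 stretches, both in the part that encodes Pol. The counts of different rows were thus drawn from different lengths of sequence and are not set against each other as levels. Although the tags are of RNA 3′ ends, the nearest stretch ended 1522 nt before the row's end in YLR227W-B and 918 nt in YMR045C. In YLR256W-A it ended 1232 nt before the row's end, which itself lies 4304 nt before the element's end. It ended 436, 265 and 121 nt before the row's end in YNL054W-B, YBL005W-B and YGR109W-B. Whether these counts came from full-length Ty RNA was not tested.

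The stretches are shown for 4 rows because counts of Ty rows were assigned through differing bases of this kind. Capitals mark bases that differ from the most similar other place in the genome, and the R64 positions are chrXII:651117-651204 (plus strand) for YLR256W-A, chrXII:597049-597168 (plus) for YLR227W-B, chrXIII:358298-358417 (minus) for YMR045C and chrVII:711029-711148 (plus) for YGR109W-B.
YLR256W-A: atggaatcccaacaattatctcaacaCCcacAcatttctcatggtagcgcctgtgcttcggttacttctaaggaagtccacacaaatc
YLR227W-B: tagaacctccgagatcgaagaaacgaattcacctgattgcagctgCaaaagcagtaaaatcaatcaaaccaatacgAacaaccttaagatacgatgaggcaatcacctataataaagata
YMR045C: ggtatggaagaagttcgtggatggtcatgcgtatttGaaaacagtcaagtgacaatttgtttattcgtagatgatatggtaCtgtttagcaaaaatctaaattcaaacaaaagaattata
YGR109W-B: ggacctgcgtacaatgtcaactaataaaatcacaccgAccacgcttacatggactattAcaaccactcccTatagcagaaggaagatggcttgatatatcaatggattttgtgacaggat

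The 88 bases of YLR256W-A start at its start codon and hold 3 bases that set it apart from YPL257W-A, the Gag row of another Ty1 copy. YLR227W-B, in Pol, was set apart from YPR158W-B by 2 bases of 120, YMR045C from YNL284C-B by 2 of 120, and YGR109W-B from YIL082W-A by 3 of 120.

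The primer binding sites are shown because the only countable stretch of YLR256W-A runs over one. Capitals mark the bases that pair with the 3′ end of the initiator methionine tRNA, and the positions are chrXII:651158-651187 (plus strand) in the Ty1 copy of YLR256W-A and chrVII:707535-707564 (plus) in the Ty3 copy of YGR109W-B.
Ty1 site: TGGTAGCGCCtgtgcttcggttacttctaa
Ty3 site: ccTGGTAGCGttaaaggttactaattgttc

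The Ty1 site pairs over 10 bases directly after the LTR, and the Ty3 site over 8 bases that begin 2 bases after it. All 5 Ty1 copies carried the same 30 bases at this place.

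**Figure D1:**
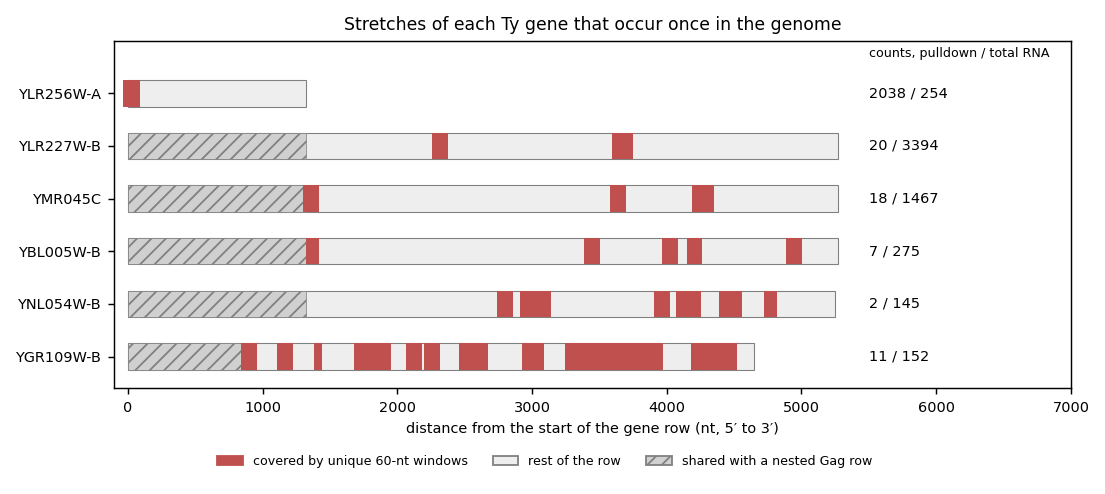
Position of uniquely countable sequence (red) along each gene row, with distance from the row's start in nt on the x axis; hatching marks a nested Gag row, and numbers give summed counts in 15 pull-down and 15 total RNA libraries. YLR256W-A is read only at its start and held 2038 pull-down and 254 total RNA counts, whereas YLR227W-B is read in Pol and held 20 and 3394.

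The first question was which Ty rows were recovered with Yra1 through the cap-binding complex or through THO. YLR256W-A was the only 1 of the 6 with enough counts to be tested in pull-downs. It passed the filter on low counts through the tagged pull-downs, as no-tag libraries held 0 to 10 counts each. A rise over no tag was thus favoured in advance, and the other rows could not be compared. YLR256W-A rose in all 3 comparisons of a tagged strain with its no-tag control. In the Cbp80/Yra1 pull-downs of WT it had 1508, 1200 and 1228 CPM (388, 552 and 370 counts), against 162, 56.3 and 90.1 CPM (10, 4 and 4 counts) in no-tag pull-downs of WT. Every Cbp80 library lay far above every no-tag library. This gave a log2 fold change of 3.16 ± 0.33 (SE, n = 3 each) and an adjusted p of 6.5e-13 in edgeR's quasi-likelihood test. A gene was called where the adjusted p was below 0.05 with more than 1 log2 unit of change. By this, 58.9% of the 2997 genes tested were called, so that being called did not set the row apart from other genes.

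Through Hpr1, a THO subunit, the same row was recovered to a smaller extent. It had 333, 434 and 376 CPM (26, 61 and 37 counts) in Hpr1/Yra1 pull-downs, and these libraries lay above all no-tag libraries and below all Cbp80 libraries of WT. Against no tag this was a log2 fold change of 1.33 ± 0.37 (adjusted p = 0.003), a comparison in which 37.5% of genes were called, and the call was lost without replicate 2 of the no-tag pull-downs (log2 fold change 1.02, adjusted p = 0.061). Set directly against the Cbp80 pull-downs, Hpr1 pull-downs held less, with a log2 fold change of -1.83 ± 0.25 (adjusted p = 5.8e-09), where 42.1% of genes were called.

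Without Tho2, YLR256W-A remained in the Cbp80/Yra1 pull-downs. It had 1027, 994 and 1416 CPM (273, 144 and 166 counts) there, against 26.1, 0 and 62.2 CPM (1, 0 and 2 counts) in no-tag pull-downs of tho2Δ. The groups did not overlap, and the ratio of summed counts, each divided by the TMM-scaled total of its group, was 32.4 with an exact 95% counting interval of 11 to 157. Ratios and bounds from counts are scaled in this way throughout and so differ from those of the bare counts. The fitted log2 fold change was 5.02 ± 0.49 (adjusted p = 5.0e-14) and 6.12 without replicate 3 of the no-tag pull-downs, and 53.1% of genes were called in this comparison.

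The Cbp80 pull-downs of tho2Δ and of WT overlapped for this row, at a mean of 1146 ± 235 CPM in tho2Δ and 1312 ± 170 CPM in WT (SD, n = 3 each). Their log2 fold change was -0.18 ± 0.22 (adjusted p = 0.57), and 18.0% of genes were called between these groups. The no-tag pull-downs were lower in tho2Δ than in WT by point estimate, with 3 counts against 18 and a log2 fold change of -2.04 ± 0.72 that did not pass (adjusted p = 0.16, where 1.80% of genes were called). The test of whether the Cbp80 over no-tag ratio differed between tho2Δ and WT gave a log2 difference of 1.86 ± 0.77 (adjusted p = 0.18), and 4.34% of genes were called. In those 3 comparisons 0 members were called by edgeR, with YLR256W-A at an unadjusted p under 0.05 in 2 of them, and 0 by DESeq2.

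TMM scaling left the median of all tested genes away from 0 in pull-down comparisons, by 0.18 for Cbp80 over no tag in WT, 0.24 for Hpr1 over no tag, 0.29 for Cbp80 over no tag in tho2Δ, 0.15 for the difference of the ratios and -0.15 for no tag in tho2Δ over WT. With median-ratio size factors the median was 0.71 for Cbp80 over no tag in WT, and YLR256W-A was higher in the tagged pull-downs under every scaling tried.

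The annotation places YLR256W-A in the copy YLRWTy1-3 at chrXII:650824-656743, inserted on the same strand at the 3′ end of HAP1, which encodes a heme-responsive transcription factor. The HAP1 row (chrXII:646415-650923) runs 100 nt into the element, and 193 nt separate its end from the first base of YLR256W-A. The HAP1 row itself had 205, 249 and 152 CPM in Hpr1/Yra1 pull-downs, 136, 135 and 76.4 CPM in Cbp80/Yra1 pull-downs of WT, and 32.3, 56.3 and 0 CPM in no-tag pull-downs of WT. It was thus highest in the Hpr1 pull-downs, where YLR256W-A was lower than in the Cbp80 pull-downs.

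HAP1 rose in Hpr1 over no-tag pull-downs by a log2 fold change of 2.00 ± 0.58 (adjusted p = 0.0044, and 2.88 without replicate 2 of the no-tag pull-downs) and did not pass in Cbp80 over no-tag pull-downs (1.24 ± 0.60, adjusted p = 0.063). In Cbp80 pull-downs it fell to 26.3, 13.8 and 68.3 CPM in tho2Δ, all under the WT libraries, with a log2 fold change of -1.77 ± 0.40 (adjusted p = 3.4e-04, and -2.37 without replicate 3 of tho2Δ). Whether the counts of YLR256W-A came from RNA that starts in HAP1, from RNA that starts in the LTR or from the opposite strand was not tested, and the strand setting of the counting is not given in the sources used here.

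**Figure D2:**
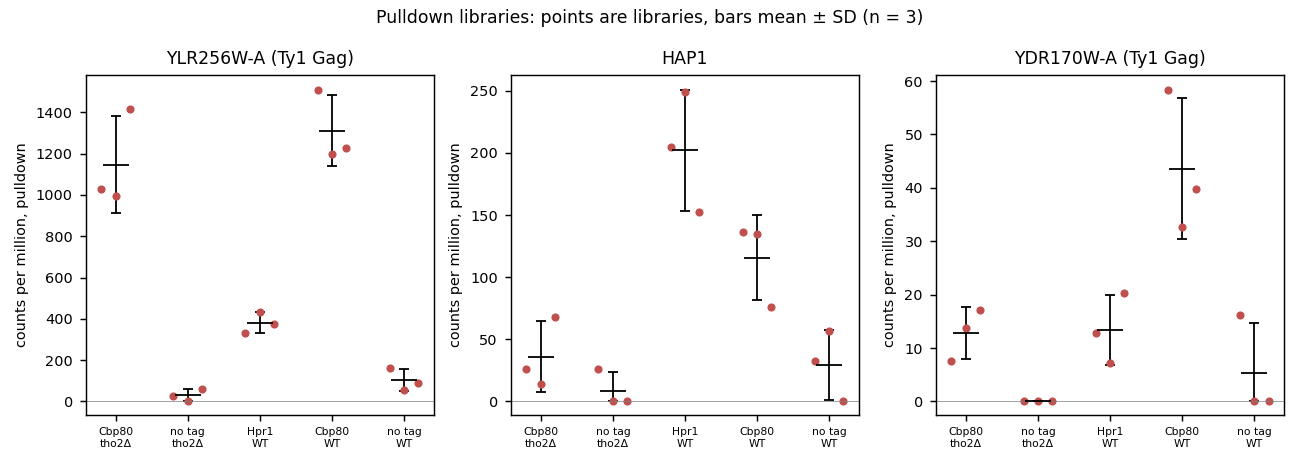
CPM in pull-down libraries (y axis) for YLR256W-A, HAP1 and YDR170W-A in 5 strains; points are libraries, bars the mean and SD with lower bars cut at 0. YLR256W-A stood at 994 to 1508 CPM in both Cbp80 strains, whereas HAP1 was highest with Hpr1 (152 to 249 CPM).

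A Gag row outside the 6, YDR170W-A (chrIV:803195-804517), was singled out after its values were seen. Like YLR256W-A it has no Gag-Pol row around it. It had 58.3, 32.6 and 39.8 CPM (15, 15 and 12 counts) in Cbp80/Yra1 pull-downs of WT, against 16.2, 0 and 0 CPM (1, 0 and 0 counts) in no-tag pull-downs of WT. In these no-tag libraries 3 counts stand for 48.5, 42.2 and 67.6 CPM, so the row lay near the floor there. As it was chosen for these values, no difference is claimed for it. In total RNA it had 6 counts over 15 libraries. Of the other Gag rows that are not nested, YAR010C had 4 pull-down counts and YJL114W 1, so that YLR256W-A held 2038 of the 2096 pull-down counts of these 4 rows.

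Against its own total RNA, YLR256W-A rose in the Cbp80 and Hpr1 strains and in the no-tag strain of WT. Total RNA of the Cbp80 strain of tho2Δ held 30.5, 30.4 and 36.1 CPM, and that of the Cbp80 strain of WT 45.6, 39.5 and 35.2 CPM, and every pull-down of these strains lay far above them. Pull-down over own total RNA gave a log2 fold change of 5.07 ± 0.20 (adjusted p = 3.4e-45) for Cbp80 in tho2Δ and 4.78 ± 0.19 (adjusted p = 5.4e-45) for Cbp80 in WT. It was 3.02 ± 0.25 (adjusted p = 1.4e-20) for Hpr1.

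The no-tag pull-downs of WT, which measure what binds the beads and antibody without a PrA tag, also held more of this row than their total RNA. There the log2 fold change was 1.65 ± 0.44 (adjusted p = 0.001), and the call was lost without replicate 1 of the no-tag pull-downs (1.21, adjusted p = 0.10). In the no-tag strain of tho2Δ it was 0.54 ± 0.90 (adjusted p = 0.66), and its sign changed without replicate 3 of those pull-downs (-0.35).

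The 4 Ty1 Gag-Pol members were lower in pull-downs of WT than in own total RNA. They passed the filter on low counts through total RNA, so a lower value in pull-downs was favoured in advance. YLR227W-B, the Ty1 row with most counts in total RNA, had 0, 13.0 and 0 CPM (0, 6 and 0 counts) in Cbp80/Yra1 pull-downs of WT, against 357, 427 and 423 CPM (164, 216 and 204 counts) in their own total RNA. It had 12.8, 14.2 and 20.3 CPM (1, 2 and 2 counts) in Hpr1/Yra1 pull-downs, against 458, 361 and 413 CPM in their own total RNA. The groups were far apart in both strains, with pull-down over total RNA at a log2 fold change of -6.24 ± 0.32 (adjusted p = 8.3e-35) for Cbp80 and -4.93 ± 0.39 (adjusted p = 2.3e-21) for Hpr1. All 6 Cbp80 pull-down counts were in replicate 2, and the fitted value was -10.05 without it.

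YMR045C, a Ty1 Gag-Pol row on the minus strand of chromosome XIII, behaved alike. It had 7.77, 17.4 and 9.96 CPM (2, 8 and 3 counts) in Cbp80/Yra1 pull-downs of WT, against 180, 265 and 247 CPM in their own total RNA, a log2 fold change of -4.38 ± 0.30 (adjusted p = 1.1e-25). With Hpr1 it had 12.8, 14.2 and 10.2 CPM, against 237, 220 and 201 CPM in total RNA, a log2 fold change of -4.34 ± 0.45 (adjusted p = 1.1e-14). In the Cbp80 pull-downs of tho2Δ it had 0 counts, against 156 in their own total RNA, so that it was at least 17.5-fold lower when a floor of 3 counts over the group is used.

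YBL005W-B and YNL054W-B, the remaining Ty1 Gag-Pol rows, had few counts in any pull-down, 7 and 2 in all 15 libraries, against 275 and 145 counts in total RNA. YNL054W-B had 0 counts in the Cbp80 pull-downs of WT, against 42 in their own total RNA, and was at least 11.6-fold lower. YBL005W-B had 3 counts there, against 82, a ratio of 0.0441 with an exact 95% counting interval of 0.00891 to 0.133. Both were called lower in Cbp80, Hpr1 and no-tag pull-downs of WT than in own total RNA, and YBL005W-B also in Cbp80 pull-downs of tho2Δ. With so few pull-down counts, a call in the other direction was hardly possible for these 2 rows, so the direction of all these calls adds little. The no-tag calls rest on 0 pull-down counts and few reads in total RNA. The call of YBL005W-B was lost without replicate 1 (adjusted p = 0.058) or 2 (adjusted p = 0.068) of the no-tag pull-downs, and that of YNL054W-B without any 1 of the no-tag pull-downs (adjusted p = 0.13, 0.14 and 0.11), without replicate 1 or 2 of the no-tag total RNA (adjusted p = 0.056 and 0.092) and in DESeq2 (adjusted p = 0.093). YNL054W-B in Cbp80 pull-downs of tho2Δ had 1 count and was not called (adjusted p = 0.052), but was without replicate 2 of those pull-downs (adjusted p = 0.024).

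YGR109W-B, the Ty3 row, was not called in WT. It had 4 counts in the Cbp80 pull-downs against 15 in their total RNA, and 3 in the Hpr1 pull-downs against 22, and neither log2 fold change passed (-1.53 ± 0.78, adjusted p = 0.065, and -0.90 ± 0.88, adjusted p = 0.39). In no-tag pull-downs of WT it had 1 count against 20 (-0.92 ± 1.40, adjusted p = 0.63). In the Cbp80 strain of tho2Δ it had 2 counts in the pull-downs against 54 in total RNA, and this passed, at a log2 fold change of -3.05 ± 0.79 (adjusted p = 3.4e-04). Both counts were in replicate 3, and the fitted value was -6.45 without it and -1.99 (adjusted p = 0.045) without replicate 1 of the pull-downs.

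Counted over the 6, pull-down over own total RNA gave 1 member higher and 4 lower in each of 4 strains, namely Cbp80 in tho2Δ, Hpr1 in WT, Cbp80 in WT and no tag in WT, and 0 higher and 2 lower (YLR227W-B and YMR045C) in the no-tag strain of tho2Δ. The shares of all 5501 genes called were 62.7% for Cbp80 in tho2Δ, 40.2% for no tag in tho2Δ, 47.5% for Hpr1, 64.2% for Cbp80 in WT and 41.7% for no tag in WT. In the same order, the median log2 fold change over all genes was -0.18, -0.91, -0.09, -0.11 and -0.62. Folds over own total RNA, those of YLR256W-A included, thus start from a lower baseline in the no-tag strains than in the tagged ones. Of the 12 Ty rows tested, 2 were called higher and 8 lower for Cbp80 in WT, and 1 higher and 8 lower for no tag in WT. Several of these rows had 0 counts in no-tag pull-downs, where a fitted fold is no bound, so no median is given for them. Lower Gag-Pol counts were thus also present in pull-downs without a PrA tag, and with so few counts a difference between tagged and no-tag pull-downs was not detectable at this depth for these 5 rows. As an example, YMR045C had 13 counts in Cbp80 and 0 in no-tag pull-downs of WT, whose depths differ so much that no fold can be bounded above 1. Between the Cbp80 pull-downs it had 0 counts in tho2Δ and 13 in WT, at least 2.18-fold lower in tho2Δ when the 0 is given a floor of 3 counts. That bound takes no spread between replicates into account, and the counts were too few for the test across genes. YMR045C was also lower in total RNA, at a mean of 96.1 CPM in the Cbp80-PrA strain of tho2Δ against 231 CPM in WT. A change in recovery therefore cannot be read from the bound.

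**Figure D3:**
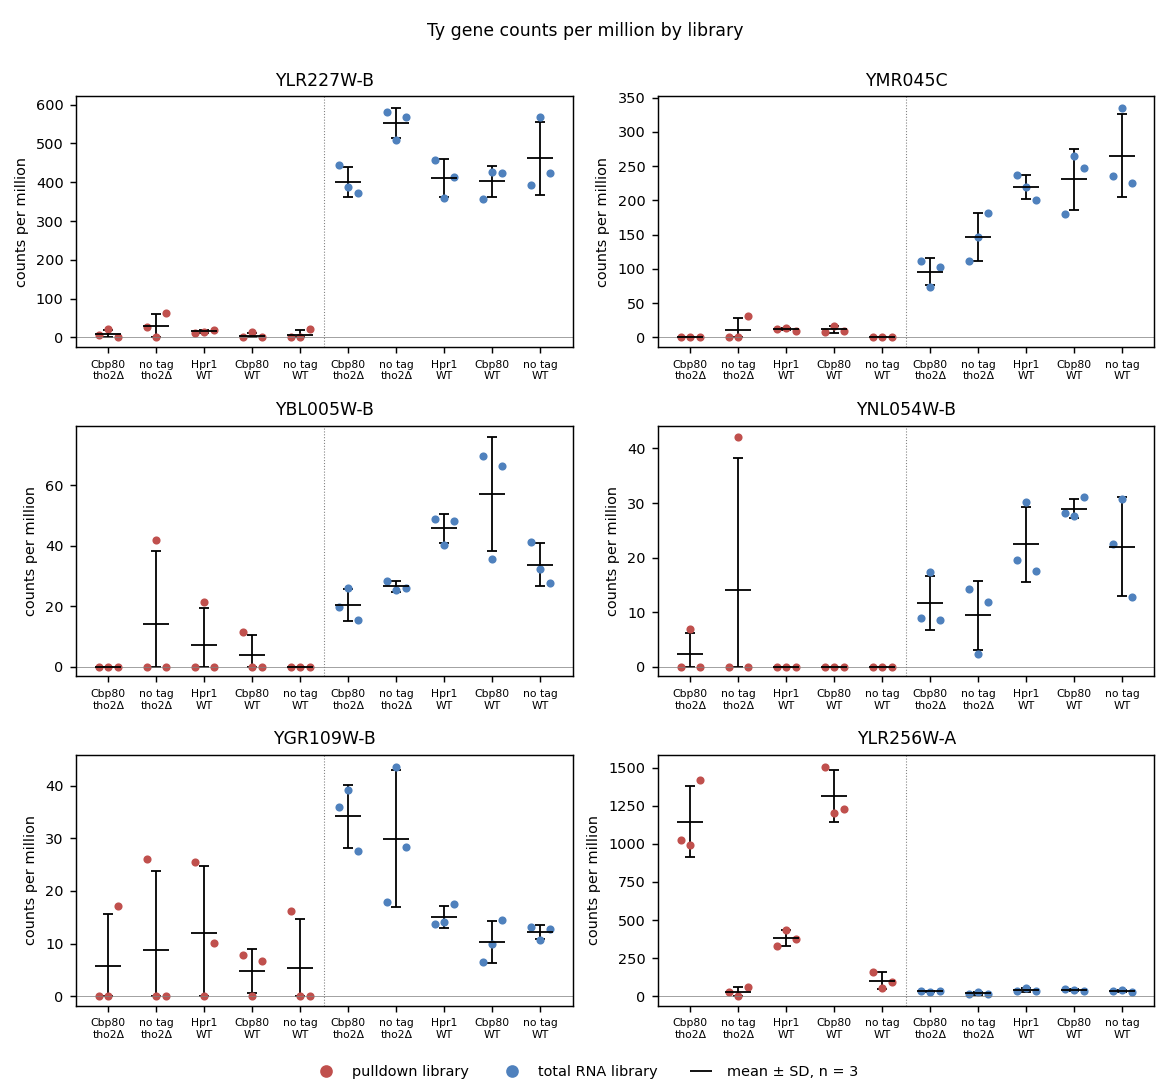
CPM (y axis, linear, own scale per panel) of the 6 Ty genes in pull-down (red, left) and total RNA (blue, right) libraries of 5 strains; black bars are mean and SD (n = 3), lower bars cut at 0. The 4 Ty1 Gag-Pol rows stand higher in total RNA than in most pull-downs, YNL054W-B only at means of 9.45 to 29.0 CPM. YLR256W-A stands the other way, near 1312 CPM in Cbp80 pull-downs of WT.

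As a share of all Ty counts, YLR256W-A made up 94.3% (exact 95% interval 92.2 to 96.0) in Cbp80 pull-downs of tho2Δ, 68.9% (61.6 to 75.6) in Hpr1 pull-downs, 90.9% (89.3 to 92.3) in Cbp80 pull-downs of WT and 75% (53.3 to 90.2) in no-tag pull-downs of WT. In no-tag pull-downs of tho2Δ it was 3 of 13 counts. In total RNA it made up between 1.91% and 4.08%. The intervals cover counting error only.

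The 6 genes together took 0.116 ± 0.023% of gene counts in Cbp80 pull-downs of tho2Δ, 0.0106 ± 0.0043% in no-tag pull-downs of tho2Δ, 0.0428 ± 0.0051% in Hpr1 pull-downs, 0.134 ± 0.017% in Cbp80 pull-downs of WT and 0.0116 ± 0.0061% in no-tag pull-downs of WT (SD, n = 3 each). In total RNA they took 0.0596 ± 0.0048% in the Cbp80 strain of tho2Δ, 0.0785 ± 0.0039% in the no-tag strain of tho2Δ, 0.0752 ± 0.0050% with Hpr1-PrA, 0.0769 ± 0.0072% in the Cbp80 strain of WT and 0.0830 ± 0.0165% in the no-tag strain of WT. In the Cbp80 pull-downs nearly all of this share was thus YLR256W-A, and in total RNA nearly all of it the other 5.

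**Figure D4:**
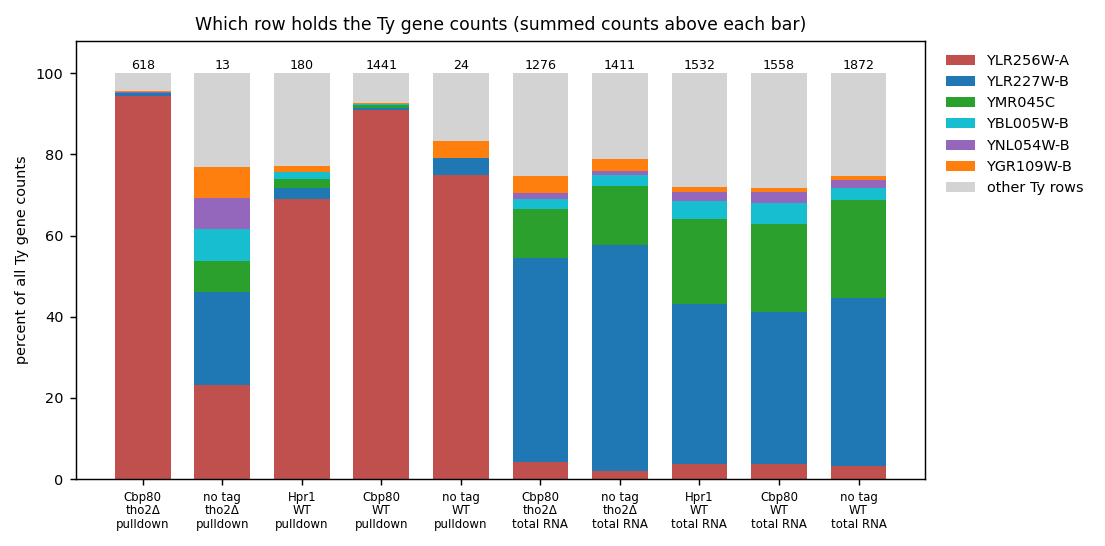
Share of all Ty gene counts (y axis, percent) held by each of the 6 genes and by the other Ty rows in each group, with the summed Ty counts above each bar. YLR256W-A fills 90.9% of the bar in Cbp80 pull-downs of WT and 3.72% in their total RNA.

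The second question was whether loss of Tho2 changed the counts of Ty rows in total RNA. The Gag-Pol rows did not move together: YMR045C, YBL005W-B and YNL054W-B fell in the Cbp80-PrA strain of tho2Δ, the Ty3 row YGR109W-B rose, and YLR227W-B stayed within the spread of its replicates. In that strain 1 of the 6 was called higher and 3 lower, where 7.53% of 4792 genes were called, and in the no-tag strain 1 was called higher and 1 lower, where 5.07% were called. The median over the 11 Ty rows tested was -0.51 with Cbp80-PrA and -0.42 without a tag, beside 0.00 over all genes in both.

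YMR045C had 111, 73.9 and 103 CPM in the Cbp80-PrA strain of tho2Δ, against 180, 265 and 247 CPM in the Cbp80-PrA strain of WT. Without a tag it had 112, 147 and 182 CPM in tho2Δ, against 235, 335 and 225 CPM in WT. The tho2Δ libraries lay under all WT libraries in both strains. YMR045C thus fell with Cbp80-PrA (log2 fold change -1.32 ± 0.19, adjusted p = 2.1e-06), and without a tag its value of -0.97 ± 0.17 (adjusted p = 9.2e-05) was short of the limit on the fold change. It passed that limit without replicate 1 (-1.04) or 3 (-1.05) of the no-tag total RNA of WT or replicate 3 of that of tho2Δ (-1.13).

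YBL005W-B had 19.7, 26.1 and 15.5 CPM in the Cbp80-PrA strain of tho2Δ, against 69.6, 35.6 and 66.3 CPM in the Cbp80-PrA strain of WT. Without a tag the libraries overlapped, with 28.5, 25.3 and 26.0 CPM in tho2Δ and 41.4, 32.3 and 27.6 CPM in WT. Its log2 fold change was -1.56 ± 0.29 (adjusted p = 4.6e-05) with Cbp80-PrA and -0.42 ± 0.31 (adjusted p = 0.37) without a tag. The difference between these 2 effects was -1.14 ± 0.44 and did not pass (adjusted p = 0.095), although it was called without replicate 2 of the Cbp80-PrA total RNA of WT (-1.41, adjusted p = 0.023).

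YNL054W-B had 8.97, 17.4 and 8.59 CPM in the Cbp80-PrA strain of tho2Δ, against 28.3, 27.7 and 31.1 CPM in WT, and the libraries did not overlap. It fell by 1.42 ± 0.42 on the log2 scale (adjusted p = 0.0077). Without a tag it had 14.2, 2.30 and 11.8 CPM in tho2Δ, against 22.6, 30.7 and 12.8 CPM in WT, from between 1 and 20 counts per library. That log2 fold change was -1.28 ± 0.45 (adjusted p = 0.037), and the call was lost without replicate 1 (adjusted p = 0.078) or 2 (adjusted p = 0.25) of the no-tag total RNA of WT, without replicate 2 (adjusted p = 0.20) or 3 (adjusted p = 0.060) of that of tho2Δ, and in DESeq2 (adjusted p = 0.13).

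YGR109W-B, the Ty3 row, went the other way. It had 35.9, 39.1 and 27.5 CPM (20, 18 and 16 counts) in the Cbp80-PrA strain of tho2Δ, against 6.52, 9.88 and 14.5 CPM (3, 5 and 7 counts) in WT, and without a tag 17.8, 43.6 and 28.3 CPM (10, 19 and 12 counts) in tho2Δ, against 13.2, 10.8 and 12.8 CPM (7, 7 and 6 counts) in WT. All tho2Δ libraries lay above all WT libraries of the same tag. Its log2 fold change was 1.61 ± 0.40 (adjusted p = 0.0014) with Cbp80-PrA and 1.16 ± 0.39 (adjusted p = 0.026) without a tag. The no-tag call was lost without replicate 2 of the no-tag total RNA of tho2Δ (0.80, adjusted p = 0.21) or of WT (1.07, adjusted p = 0.090), and in DESeq2 (1.19, adjusted p = 0.11). YIL082W-A, the second Ty3 Gag-Pol row, had log2 fold changes of 0.40 ± 0.40 with Cbp80-PrA and 0.14 ± 0.36 without a tag, and neither passed (adjusted p = 0.51 and 0.83).

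YLR227W-B had 445, 387 and 371 CPM in the Cbp80-PrA strain of tho2Δ, against 357, 427 and 423 CPM in WT, and the groups overlapped. Without a tag it had 582, 508 and 567 CPM in tho2Δ, against 393, 569 and 423 CPM in WT, where replicate 2 stood above the other WT libraries. Its log2 fold changes were -0.08 ± 0.12 (adjusted p = 0.68) with Cbp80-PrA and 0.17 ± 0.12 (adjusted p = 0.32) without a tag. Between the tho2Δ strains it was lower with Cbp80-PrA than without a tag, by a log2 fold change of -0.46 ± 0.12 (adjusted p = 0.0034) that did not reach the limit on the fold change.

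YLR256W-A had log2 fold changes of -0.37 ± 0.29 (adjusted p = 0.38) with Cbp80-PrA and -0.97 ± 0.33 (adjusted p = 0.029) without a tag, where it had 14.2, 29.9 and 14.2 CPM in tho2Δ, against 32.0, 43.0 and 29.8 CPM in WT. The highest tho2Δ library and the lowest WT library were nearly equal. The row was called without replicate 1 (-1.03, adjusted p = 0.044) or 3 (-1.05, adjusted p = 0.030) of the no-tag total RNA of WT or replicate 2 of that of tho2Δ (-1.38, adjusted p = 0.0079). Among the other Ty rows with most counts, YHR214C-B, a Ty1 Gag-Pol row, fell in both strains, by 1.04 ± 0.16 with Cbp80-PrA (adjusted p = 2.2e-06) and by 1.21 ± 0.18 without a tag (adjusted p = 7.8e-07) on the log2 scale. With Cbp80-PrA it was short of the limit on the fold change without replicate 1 (-0.93) or 3 (-0.97) of the total RNA of WT or replicate 3 of that of tho2Δ (-0.95). YDR210C-D had 0.33 ± 0.31 and 0.41 ± 0.32 (adjusted p = 0.49 and 0.41).

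**Figure D5:**
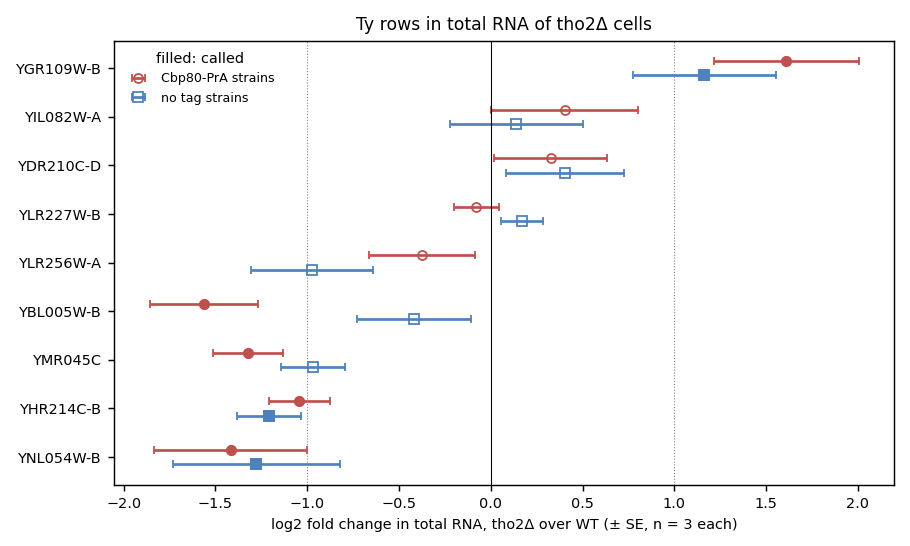
Log2 fold change in total RNA of tho2Δ over WT (x axis, with SE, n = 3 each) for the 6 Ty genes and 3 other Ty rows, in Cbp80-PrA strains (circles) and no-tag strains (squares), filled where called. YGR109W-B lies at 1.61 and 1.16, YLR227W-B near 0, and YMR045C, YHR214C-B and YNL054W-B between -0.97 and -1.42.

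In the order of the total RNA levels, YMR045C averaged 96.1 ± 19.6 CPM in the Cbp80-PrA strain of tho2Δ, 147 ± 35 CPM in the no-tag strain of tho2Δ, 219 ± 18 CPM with Hpr1-PrA, 231 ± 44 CPM in the Cbp80-PrA strain of WT and 265 ± 61 CPM in the no-tag strain of WT. Both tho2Δ groups stood below the WT groups. YGR109W-B averaged 34.2 ± 6.0 CPM and 29.9 ± 13.0 CPM in the Cbp80-PrA and no-tag strains of tho2Δ, and 15.1 ± 2.1 CPM with Hpr1-PrA, 10.3 ± 4.0 CPM with Cbp80-PrA and 12.2 ± 1.3 CPM without a tag in WT. Neighbours in these orders within a genotype did not differ by a call.

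A PrA tag by itself was compared in total RNA. In WT, 0 of the 6 were called by edgeR and 0 by DESeq2 for Cbp80-PrA over no tag, where 0% of genes were called, and YBL005W-B was the 1 member at an unadjusted p under 0.05 (0.73 ± 0.26, adjusted p = 0.71). For Hpr1-PrA over no tag, 0 were called by edgeR or DESeq2, where again 0% of genes were called, and 0 had an unadjusted p under 0.05. In tho2Δ, 0 were called by edgeR or DESeq2 for Cbp80-PrA over no tag, with 3 at an unadjusted p under 0.05, where 4.36% of genes were called. The interaction of tho2Δ with the Cbp80-PrA tag gave 0 calls by edgeR or DESeq2 and 1 member at an unadjusted p under 0.05, where 4.07% of genes were called.

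Host genes known to act on Ty elements were read from lists. In total RNA of tho2Δ over WT, 0 of 16 activators and coactivators of Ty transcription, 0 of 7 genes of Ty RNA handling and 0 of 7 that restrict Ty cDNA were called in either strain by edgeR or DESeq2. At an unadjusted p under 0.05 in edgeR there were 7, 4 and 2 of them with Cbp80-PrA and 2, 1 and 1 without a tag. Of 7 tested of the RNA polymerase III machinery, which guides Ty integration, 1 was called with Cbp80-PrA, RPC82 (1.06 ± 0.13, adjusted p = 9.9e-09), and 0 without a tag. In Cbp80-PrA over no tag within tho2Δ, 1 of these 7 was also called higher. An effect of the loss of Tho2 and a difference between strain isolates thus cannot be told apart for this call. Of 7 THO and TREX genes only THO2 itself was called. The medians of these 5 lists lay between -0.25 and 0.18, beside 0.00 over all genes. Another list was of genes specific to mating type a, a cell type whose pheromone pathway also acts on Ty1 transcription. Over 5 genes tested, its median lay farther from 0 with Cbp80-PrA, at -0.62, and within the range of the other lists without a tag, at -0.19. Of the 5, BAR1 was called lower with Cbp80-PrA (-1.26 ± 0.17, adjusted p = 1.1e-07), and 3 with Cbp80-PrA and 1 without a tag had an unadjusted p under 0.05. The part of these genes in the Ty values was not tested.

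In Cbp80 over no-tag pull-downs of WT, 9 of the 16 activators were tested, of which 3 were higher and 2 lower by edgeR. That is 5 of 9, near or below the 58.9% called over all genes. DESeq2, where the median over all genes was 0.96, tested all 16 and called 5 higher and 0 lower, so the lower calls were not made by both tools. The share of all genes called by DESeq2 is not given here, so its counts are not read as a result about these lists. By edgeR the called genes included GCR1, a glycolytic gene activator (3.04 ± 0.61, adjusted p = 1.6e-05), SPT3, a SAGA subunit needed for Ty1 transcription (2.75 ± 0.67, adjusted p = 3.2e-04), and GCN4, an amino acid starvation activator (-1.34 ± 0.26, adjusted p = 1.1e-05). Of 5 genes tested of Ty RNA handling, DHH1, a helicase of processing bodies, was the 1 called higher (3.63 ± 0.67, adjusted p = 3.6e-06), against 2 of 7 in DESeq2. Of 2 tested of Ty restriction, FUS3, the mating kinase that limits Ty1, was higher (1.21 ± 0.38, adjusted p = 0.0048), against 1 of 7 in DESeq2. Of 5 tested of the RNA polymerase III machinery, BDP1, a TFIIIB subunit, was the 1 called lower (-1.06 ± 0.36, adjusted p = 0.0090), whereas DESeq2 called 2 of 7 higher and 0 lower. These 4 lists had medians of 0.58, 0.20, 0.52 and -0.41, beside 0.18 over all genes.

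All 6 copies lay next to a tRNA gene, the usual insertion site of Ty1 and Ty3. The nearest tRNA gene was 286 nt from the row of YNL054W-B, 430 nt from YGR109W-B, 436 nt from YMR045C, 476 nt from YBL005W-B and 818 nt from YLR227W-B, and 4494 nt from YLR256W-A, whose row ends 4304 nt before its element does. Neighbouring coding genes are given as summed counts, which are not corrected for depth, and a difference in recovery was not tested. PDR3, a drug resistance factor gene beside YBL005W-B, had 78 counts in Cbp80 pull-downs of WT and 123 in their total RNA, where YBL005W-B had 3 and 82. IOC4, a chromatin remodelling gene beside YMR045C, had 42 and 547 counts, where YMR045C had 13 and 336. ECM22, beside YLR227W-B, had 43 and 125 counts, and VAC7, beside YNL054W-B, had 20 and 241. CLD1, beside YGR109W-B, had 6 and 3 counts, and HAP1, beside YLR256W-A, had 120 and 167.

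Across the means of the 10 groups, the non-Ty genes whose levels followed YLR256W-A most closely were HTB1 and HTB2, the histone H2B genes, and PTC4, a protein phosphatase gene, with Pearson r of 0.995, 0.990 and 0.990 on log2(CPM + 1). Those closest to YLR227W-B were ARP2 (0.996), SEC16 (0.992) and RGD3 (0.990), and those closest to YMR045C were NET1 (0.991), ZTA1 (0.990) and CDC33 (0.990). They were taken from 4921 genes averaging 20 CPM or more, and the 10 points share 5 strains and fall into pull-downs and total RNA, so that they are not independent.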

How the data were processed

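RNA of 30 libraries (10 groups of 3) was read from 1 table of counts. Per the labels and the study's methods, the authors used UMI-tools 1.0.1 to read molecular identifiers and collapse duplicates, trimmed poly(A), removed ribosomal RNA reads, aligned with STAR 2.7.10a to R64 and counted with HTSeq 2.0.2 in intersection-nonempty mode, and the deposited counts join both sequencer runs of 14 libraries. Of these 14 libraries, 13 were of total RNA and 1 was a pull-down. Sequencer use and kind of library thus nearly coincide and can hardly be told apart in pull-down over own total RNA. The libraries are of RNA 3′-end tags, and a read with several places is not counted. The authors' normalized table and 3 lines were not used, and 5 summary lines stayed out of library totals.

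The 6 genes, the lists and the comparisons were chosen with earlier results of these data known. edgeR 4.0.16 in R 4.3.3 (TMM, filterByExpr, robust quasi-likelihood F test, Benjamini-Hochberg adjustment over all genes tested) was fitted to 15 pull-down libraries, 15 total RNA libraries, and all 30 for pull-down over own total RNA. A row with few counts can pass filterByExpr through only the groups where it is high, which favours a difference in that direction. The SE is the fold change over the root of F. A call needs more than 1 log2 unit of change with an adjusted p below 0.05. Count ratios divide summed counts by TMM-scaled group totals. Where a group had 0 counts a floor of 3 counts was used, and with 1 to 3 counts the ratio has an exact interval. Unique windows and BLAST 2.17.0 identities came from the R64 genome, and DESeq2 1.42.0 was an alternative. Fits were tested on simulated counts.

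Named besides the 6 genes were the 3 other Ty rows with most counts, up to 2 called genes per list and direction, neighbours, HAP1, THO2 and the 3 most similar profiles of a gene. YDR170W-A, YAR010C and YJL114W fall outside this and were named after their values were seen. Pull-down and total RNA of 1 replicate came from the same lysate, which pairs them by design. The correlation of their deviations from group means had a median of 0.02 over 15 pairs (from -0.05 to 0.13), and the block changed no call. Replicates are biological per the methods, and libraries of a group differed by at least 1.08 times the sampling noise (chi-square per gene). The mating type lists are markers of the cell type.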

Additional observations from a re-analysis of the deposited data

Results flagged for a closer look

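HAP1, the gene whose 3′ end holds the copy of YLR256W-A, had effects of loss of Tho2 in total RNA that differed between the Cbp80-PrA and no-tag strains at an adjusted p under 0.05, but by less than the 1 log2 unit a call needs. It had 64.6, 78.2 and 51.6 CPM in the Cbp80-PrA strain of tho2Δ, against 133, 115 and 99.4 CPM in WT, and 121, 89.6 and 92.1 CPM without a tag in tho2Δ, against 88.4, 90.7 and 104 CPM in WT. The log2 difference of the effects was -0.97 ± 0.27 (adjusted p = 0.013 in edgeR's interaction test). For YLR256W-A the same difference was 0.60 ± 0.44 (adjusted p = 0.49).

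Uniquely aligned reads that fell in overlapping genes were set aside as ambiguous by the authors' counting. These hold any uniquely aligned read wholly inside a nested Gag row, whereas reads with several places were set aside separately. They made up a median of 0.198% of reads in Cbp80 pull-downs of tho2Δ, against 0.0168% in no-tag pull-downs of tho2Δ. They made up 0.0753% in Hpr1 and 0.268% in Cbp80 pull-downs of WT, against 0.0162% in no-tag pull-downs of WT. Each tagged library lay above each no-tag library of its genotype. Which genes these reads came from was not tested.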

How the results depend on the processing

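The main limit is depth: the Gag-Pol members had at most 8 counts in any pull-down library, and each Ty1 row is read through a few bases. The calls of YLR256W-A in Cbp80 over no-tag pull-downs held under all alternatives run, with log2 fold changes of 2.86 to 3.71 in WT and 4.75 to 6.12 in tho2Δ. The replicate number as a block changed no call in any of the 18 comparisons, for example 1 member with the replicate block in Cbp80 over no-tag pull-downs of WT, and it is a shared lysate only between pull-down and own total RNA.

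Of the members called, the count for total RNA of no-tag tho2Δ over WT was 2 and became 1 with total gene counts as scaling, 0 with DESeq2, 0 with only the groups compared (where 4 were tested) and 0 to 4 with a library left out. For Cbp80 pull-downs of tho2Δ over WT it was 0 and became 1 (YMR045C) with no filter on low counts. Where the fit held only both groups, 3 members were tested and all 3 called, in place of 5 of 6, for no-tag pull-down over own total RNA in WT and for Cbp80 pull-down over own total RNA in tho2Δ. With a library left out, the count ranged over 0 to 1 for Hpr1 over no-tag pull-downs, for the interaction in total RNA and for Cbp80-PrA over no tag in total RNA of tho2Δ, and over 2 to 5 for no-tag pull-down over own total RNA in WT. Without replicate 2 of no-tag total RNA of tho2Δ, YLR256W-A was the 1 call of that Cbp80-PrA comparison (1.18, adjusted p = 0.036).

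Summed over all Ty rows in place of the 6, the share of gene counts was 0.0557% in Hpr1 pull-downs, and in total RNA 0.0797% and 0.0995% for Cbp80-PrA and no tag in tho2Δ and 0.104%, 0.107% and 0.111% for Hpr1-PrA, Cbp80-PrA and no tag in WT.

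Signs turned only for fold changes that did not pass. YNL054W-B in no-tag pull-down over own total RNA of tho2Δ was -0.07 and became 0.14 with median-ratio factors, 0.11 with total counts, 0.079 with no filter and 0.27 in DESeq2, and -4.69 to 0.67 with a library left out. With a library left out, YLR256W-A in that comparison ranged from -0.35 to 1.06, and YGR109W-B in Hpr1 pull-down over own total RNA from -1.91 to 0.038. In Hpr1-PrA over no tag in total RNA, YLR227W-B ranged from -0.28 to 0.0023, YLR256W-A from -0.15 to 0.34 and YNL054W-B from -0.29 to 0.31. In total RNA of tho2Δ, Cbp80-PrA over no tag, YGR109W-B ranged from -0.090 to 0.59 and YNL054W-B from -0.22 to 0.67, and in the interaction YNL054W-B from -0.56 to 0.34. With windows of 40 and 90 nt in place of 60 nt, the unique share of YLR256W-A was 3.30% and 6.73%.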
